A study of Mus musculus with 4 samples.

Results

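Dividing intermediate progenitors of the embryonic mouse cortex were taken as the cell barcodes that hold RNA of Eomes together with RNA of the mitotic machinery. Members were chosen by these measured counts: a barcode was one if it had at least 500 detected genes, at least 1 UMI (unique molecular identifier, 1 captured transcript) of Eomes, a UMI in 2 or more of the 6 genes Mki67, Top2a, Cdk1, Ccnb1, Cenpf and Ube2c, and none of Dlx1 or Dlx2, which mark progenitors of inhibitory neurons. Of 19015 barcodes that passed the gene minimum, out of 19237 in all, 336 were members.

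Intermediate progenitors are the transit-amplifying cells of the developing cortex. They arise from radial glia at the ventricle, switch on the T-box factor Eomes (Tbr2), divide in the subventricular zone and give rise to excitatory neurons. COP1 (gene Rfwd2 in these tables, Cop1 in RefSeq) is the substrate-binding part of a CUL4 ubiquitin ligase that works with DET1 and the Tribbles adaptors and marks the transcription factors JUN, ETV1, ETV4 and ETV5 for degradation.

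The series profiled dissociated cortical cells of C57BL/6 embryos at E16.5 by droplet single-cell RNA sequencing of transcript 3′ ends. There were 2 libraries of the genotype COP1 KO, whose titles read CKO, and 2 of the genotype HET. The labels name no allele, Cre driver or deleted part, do not define HET and give no wild-type group. How many embryos each library holds is not given, and the labels carry no litter, batch or replicate number, so replicates are numbered in accession order and p-values measure only the spread between these 4 samples, which may be technical.

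The 4 tables held 27567556 and 28643847 counts in COP1 KO 1 and 2, and 27963375 and 27746675 in HET 1 and 2. Members numbered 104 and 63 in the COP1 KO libraries and 93 and 76 in the HET libraries, with 775194, 523325, 786954 and 653207 UMIs summed over them. The median member had 6334 and 7020.0 UMIs in COP1 KO libraries and 8404 and 7788 in HET libraries, so COP1 KO members were shallower. Each genotype had 1 library rich in Xist and 1 rich in Ddx3y, genes of female and of male cells, so sex was balanced. Libraries shared 22 to 40 barcode sequences pairwise, and 1 member sequence was shared, between COP1 KO 2 and HET 1. Scrublet, a doublet caller, marked 1 to 4 barcodes per library by itself, too few to be usable, so doublets were kept. A Scrublet score over 0.25 was held by 8 and 1 members of the COP1 KO libraries and 6 and 2 of the HET libraries.

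The genes of the rule are given here as a description. Eomes stood at 497 and 407 CPM (summed UMIs of the members scaled to a total of 1000000) in COP1 KO members, against 579 and 507 CPM in HET members. Its median per member was 2 and 3 UMIs in COP1 KO libraries and 5 and 3 UMIs in HET libraries. Of all members, 86 held exactly 1 UMI of Eomes, just inside the rule. All 6 cycle genes were present in 149 members and exactly 2 in 57, whose median depth was 5697 UMIs. Just outside the rule stood 183 barcodes with Eomes, no Dlx and 1 cycle gene, with a median of 4583 UMIs, and 42 dividing Eomes barcodes with a Dlx gene. Mki67 had 226 and 254 CPM in COP1 KO members and 235 and 228 CPM in HET members. Top2a had 982 and 915 CPM in COP1 KO members and 989 and 1029 CPM in HET members.

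Markers of the named cell type were high in members. Set against all other barcodes, and leaving out the genes of the rule, 10 of 11 intermediate progenitor markers and 11 of 12 radial glial markers were higher in members, against 2 of 10 markers of excitatory neurons and 1 of 8 of the ganglionic eminence and interneurons. The proneural factor Neurog2 led, at a mean of 995 CPM in members and 87.6 CPM elsewhere, 11.4-fold, followed by mitotic genes such as the kinetochore gene Spc25 (10.9-fold) and the phosphatase Cdc25c (10.8-fold). Compared with 751 dividing radial glia (dividing barcodes with no Eomes or Dlx and with 2 or more of Pax6, Sox2, Hes1, Hes5 and Slc1a3), members led in genes of neuronal commitment. These were the neurogenic factor Neurod1 (20.8-fold), the somatostatin receptor Sstr2 (17.9-fold), Neurog2 (11.9-fold), the cell-cycle exit gene Gadd45g (10.1-fold) and the splicing factor Rbfox3 (10.0-fold). The radial glial lipid-binding gene Fabp7 averaged 1750.4 CPM in members and 6998 CPM in dividing radial glia. The Notch target Hes1 was at 0.307 times the level of dividing radial glia, while Pax6 stood at 1.10 times and Hes5 at 0.975 times. These ratios pool genotypes that went opposite ways. Mean Hes5 was 910 CPM in members and 735 CPM in dividing radial glia of HET, but 439 and 648 CPM in those of COP1 KO. Mean Pax6 was 454 CPM in members and 505 CPM in dividing radial glia of HET, but 370 and 246 CPM in those of COP1 KO. Compared with 1034 non-dividing Eomes barcodes, members held less Neurod1 (0.330 times) and the neuronal factor Neurod6 (0.518 times), and more Fabp7 (3.02 times). These folds follow from the choice of cells and carry no test.

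Single members held RNA of both radial glia and neurons. Of the 336, 81.8% held 2 or more of the 5 radial glial genes just named and 65.5% held 2 or more of Neurod6, Neurod2, Tbr1 and Mef2c, which are expressed by excitatory neurons. Both sets were present in 49.4%. By library, both sets were in 45.2% and 54.0% of COP1 KO members and in 53.8% and 46.1% of HET members, so the genotypes overlapped.

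The first question was whether COP1 KO cortex held a different share of these cells. Members made up 1.97% (95% exact binomial interval 1.61 to 2.38) and 1.32% (1.01 to 1.68) of barcodes in the COP1 KO libraries, against 2.03% (1.64 to 2.48) and 1.74% (1.37 to 2.17) in the HET libraries. The intervals cover counting error only. The mean was 1.65% ± 0.462 in COP1 KO and 1.88% ± 0.205 in HET (SD, n = 2 each), a difference of -0.24 percentage points (two-sided exact permutation test, p = 0.667, where 0.333 is the smallest p this design can give). Among all barcodes with Eomes and no Dlx, 23.8% and 19.1% were dividing in COP1 KO and 23.4% and 19.6% in HET. Those means were 21.4% ± 3.33 in COP1 KO and 21.5% ± 2.67 in HET (SD, n = 2 each; exact permutation test, p = 1). Neither share differed beyond the spread between libraries, and 2 libraries a group cannot reach p under 0.05. With only members without any marker of blood, microglia, oligodendrocyte precursors or vessels counted, over unchanged totals of barcodes, the genotypes did not overlap. The first share was 0.357% ± 0.0314 in COP1 KO and 0.558% ± 0.0187 in HET (SD, n = 2 each). The second was 4.71% ± 0.192 in COP1 KO and 6.36% ± 0.114 in HET (exact permutation test, p = 0.333 for both, the smallest possible). Any 1 UMI of a marker left a member out, and the blood marker Hbb-bs was seen in 71.2% and 65.1% of COP1 KO members. It was seen in 62.4% and 59.2% of HET members, so both shares under this choice also depend on how often such RNA was found. With all members counted, the direction of the first share turned round without COP1 KO 2 (0.0896 points). That of the second turned round without COP1 KO 2 (2.32 points), without HET 1 (1.86 points) and under 2 other choices of members. The share depends on depth: with every barcode thinned to 2000 UMIs, which left out 139 and 22 shallower barcodes in the COP1 KO libraries and 0 and 0 in the HET libraries, the mean was 0.761% in COP1 KO and 0.812% in HET.

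**Figure D1:**
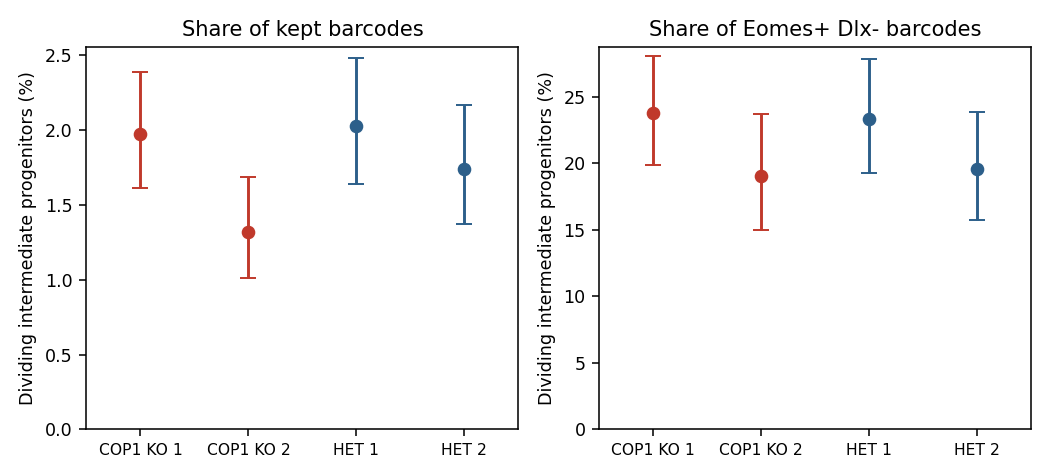
Share of dividing intermediate progenitors among all barcodes with 500 or more genes (left) and among barcodes with Eomes and no Dlx (right), in percent, for each of the 4 libraries; points are shares and bars 95% exact binomial intervals. COP1 KO 2 is lowest on the left at 1.32%, and the genotypes overlap in both panels.

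The second question was which genes differed between COP1 KO and HET members. Counts were summed over members of each library and compared with edgeR's quasi-likelihood test. At a Benjamini-Hochberg adjusted p under 0.05, 18 of 8709 genes tested passed (0.207%): 12 rose (0.138%) and 6 fell (0.0689%) in COP1 KO members. By unadjusted p under 0.05, 782 genes (8.98%) passed. The genes that fell included the transcription factor Etv5, the Notch target Hes5 and the AP-1 subunit Jun. The genes that rose most were the filament gene Gfap, the membrane gene Emp1 and the calcium-binding protein gene Tesc. The 18 calls depend on the choice of cells and the tool: DESeq2 called 7, all among the 18 (Etv5, Hes5, Jun, Tesc, Lhx2, 2810417H13Rik and Ckb). The other 11 were not called by DESeq2, among them Gfap (adjusted p = 0.0758), Gm29521 (0.069) and Emp1 (0.498). Further, 0 genes passed by edgeR when members needed 2 or more UMIs of Eomes (603 of 7723 by unadjusted p) or when barcodes were thinned to 2000 UMIs (107 of 1758 by unadjusted p). With 2 or more UMIs of Eomes all 18 had the same sign. In bulk sums of this kind, fewer cells expressing a gene and less RNA per cell cannot be told apart without counts of barcodes. Counts or shares of barcodes are given below for Etv5, Hes5, Gfap, Emp1, Tagln2 and Tesc, and not for the other called genes.

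**Figure D2:**
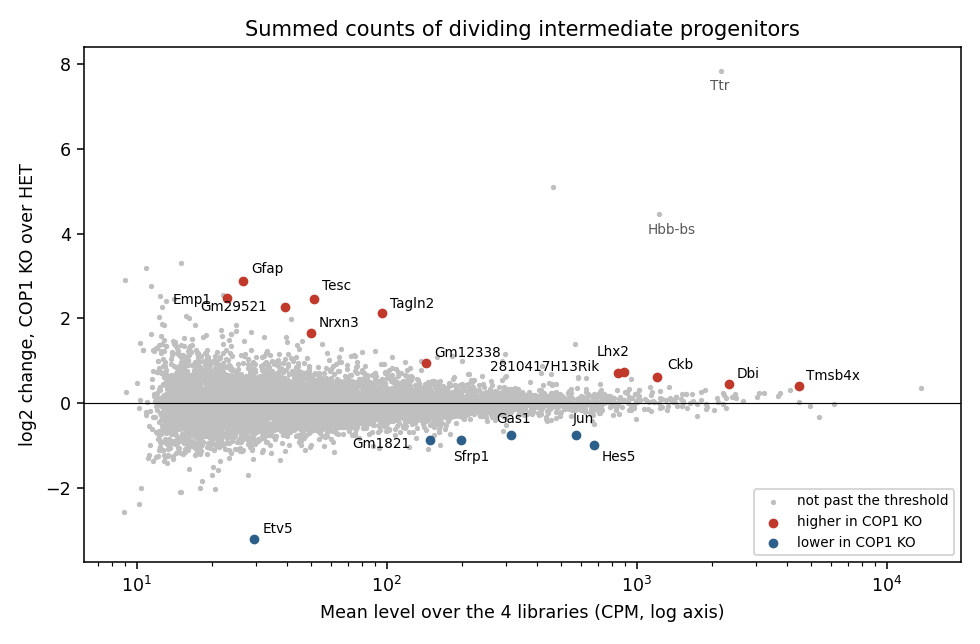
Change between COP1 KO and HET members (log2, vertical) against mean level over the 4 libraries (CPM, log axis) for the 8709 genes tested. Red points are the 12 genes that rose and blue points the 6 that fell; Ttr and Hbb-bs lie far above 0 without passing.

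Etv5, an ETS-family factor that COP1 marks for degradation as a protein, had the largest drop of the 6. It stood at 5.16 and 5.73 CPM in COP1 KO members (4 and 3 UMIs), against 43.2 and 64.3 CPM in HET members (34 and 42 UMIs). Both COP1 KO libraries lay far below both HET libraries (log2 -3.21 ± 0.44 SE, edgeR adjusted p = 0.0132). A UMI of Etv5 was found in 3 and 3 COP1 KO members and in 15 and 22 HET members. After thinning to 2000 UMIs per barcode, 0.962% and 0% of COP1 KO members held one (0 of 63 allows up to 4.76%), against 6.45% and 7.89% of HET members. Excitatory-neuron barcodes of the same libraries (no Eomes, none of the 6 cycle genes and 2 or more of the 4 neuron genes above), with median depths of 5099 to 6329 UMIs, held one after thinning in 1.19% and 0.762% (COP1 KO) and 2.28% and 2.42% (HET). The COP1 KO members with a UMI after thinning are too few to be set above or below these neuron shares. The gene lies on chr16:22381313-22439570 (GRCm38.p6, RefSeq).

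Hes5, a basic helix-loop-helix repressor switched on by Notch signalling in progenitors, had 471 and 407 CPM in COP1 KO members, against 798 and 1021 CPM in HET members. The COP1 KO libraries were both well below the HET libraries (log2 -0.999 ± 0.144 SE, edgeR adjusted p = 0.0132). A UMI of Hes5 was found in 51.9% and 50.8% of COP1 KO members and 58.1% and 60.5% of HET members, and after thinning in 38.5% and 28.6% of COP1 KO members and 38.7% and 46.1% of HET members. COP1 KO 1 and HET 1 were thus alike in the thinned share. Among excitatory-neuron barcodes, 1.92% and 2.06% (COP1 KO) and 2.11% and 1.90% (HET) held one after thinning. No single member held more than 2.94% of all Hes5 counts. With members chosen after thinning, the change was -0.45 (adjusted p = 0.888).

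The promoter of Hes5 is shown because Notch acts through the DNA-binding protein RBPJ, and that of Gfap because it rose most. For each transcript start in the RefSeq promoter table (GRCm38.p6), the 250 bases before it were searched on both strands for the RBPJ core TGGGAA, marked in capitals. Some genes have several starts. Of 32851 such promoters 21.6% held the core, and of the 20 promoters of called genes 8 did. Counted by gene, 24.1% of 27025 genes held it in at least 1 promoter, as did 6 of the 14 called genes with a promoter: Etv5, Gfap, Hes5, Jun, Lhx2 and Nrxn3. The pattern TGANTCA (N is any base), a loose form of the AP-1 element bound by JUN dimers, was searched too. It was present in 6.75% of promoters and 2 of the 20. By gene, it was present in 7.82% and in 2 of the 14, Emp1 and Nrxn3. The Emp1 matches read TGAGTCA and TGATTCA, and the Nrxn3 match reads TGATTCA. Forms of the pattern were not counted apart. A match describes the letters and is not evidence of binding.
Hes5, chr4:154960673-154960922, plus strand: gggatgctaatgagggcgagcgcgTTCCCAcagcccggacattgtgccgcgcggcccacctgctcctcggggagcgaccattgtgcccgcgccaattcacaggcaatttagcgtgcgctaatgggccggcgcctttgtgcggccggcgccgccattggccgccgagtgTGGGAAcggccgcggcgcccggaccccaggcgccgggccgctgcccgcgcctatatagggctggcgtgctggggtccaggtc
Gfap, chr11:102897201-102897450, minus strand: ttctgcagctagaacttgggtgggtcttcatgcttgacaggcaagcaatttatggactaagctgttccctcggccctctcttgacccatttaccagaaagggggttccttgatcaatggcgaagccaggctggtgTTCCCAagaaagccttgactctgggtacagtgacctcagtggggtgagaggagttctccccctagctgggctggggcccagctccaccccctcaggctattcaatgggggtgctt
The Hes5 start is at base 154960923; the RefSeq span of the gene begins upstream, at 154960626, so the stretch lies within that span. The Gfap start is at base 102897200. The Hes5 matches begin 226 and 82 bases before the start, and the Gfap match 115 bases before it.

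Jun, the AP-1 subunit whose protein COP1 targets, had 375 and 464 CPM in COP1 KO members, against 698 and 753 CPM in HET members (log2 -0.75 ± 0.13 SE, edgeR adjusted p = 0.0293). Sfrp1, a secreted Wnt inhibitor of cortical progenitors, had 144 and 128 CPM in COP1 KO members, against 252 and 266 CPM in HET members (log2 -0.87 ± 0.14 SE, adjusted p = 0.0293). Gas1, a membrane coreceptor for Hedgehog, had 217 and 247 CPM in COP1 KO members, against 438 and 360 CPM in HET members. Gas1 fell by 0.75 on the log2 scale (adjusted p = 0.0394), and the call was lost without HET 1 and when 3 or more cycle genes were required. In all 3 genes every COP1 KO library lay below every HET library. Called genes were named only if the genotypes did not overlap, as in 39.4% of all 8709 genes tested. The sixth gene that fell, Gm1821 (log2 -0.88), is an annotated ubiquitin pseudogene whose reads may belong to its parent.

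Among the genes that rose, 3 belong to the list of AP-1 targets and injury-type genes, chosen with earlier results of these data known. Gfap, the intermediate filament of astrocytes, had 38.7 and 55.4 CPM in COP1 KO members, against 5.08 and 7.65 CPM in HET members (log2 2.89 ± 0.43 SE, edgeR adjusted p = 0.0162). It was seen in 14 and 10 COP1 KO members and in 4 and 4 HET members. After thinning, the share was 4.81% and 6.35% in COP1 KO members and 0% and 0% in HET members, where 0 of 93 and 0 of 76 allow up to 3.23% and 3.95%. Among excitatory-neuron barcodes the mean share after thinning was 0.189% in COP1 KO libraries and 0.0237% in HET libraries. Emp1 had 32.3 and 45.9 CPM in COP1 KO members, against 6.35 and 7.65 CPM in HET members (log2 2.47, edgeR adjusted p = 0.0352). It was seen in 12 and 9 COP1 KO members and in 2 and 3 HET members. Tagln2, an actin-binding protein gene, had 124 and 185 CPM in COP1 KO members, against 12.7 and 62.8 CPM in HET members (log2 2.12, adjusted p = 0.0433). Barcodes with Tagln2 numbered 33 and 16 in COP1 KO members and 6 and 12 in HET members. Its CPM in HET 2 was higher than in HET 1 but below both COP1 KO libraries. The Tagln2 change was 3.60 without HET 2 and 1.32 without HET 1.

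Tesc had 82.6 and 89.8 CPM in COP1 KO members, against 8.90 and 24.5 CPM in HET members (log2 2.45 ± 0.35 SE, edgeR adjusted p = 0.0132). It was seen in 20 and 14 COP1 KO members and in 4 and 7 HET members. Its change was 3.29 without HET 2 and 1.85 without HET 1, and was called in both. Nrxn3, a neurexin of the presynaptic membrane, had 69.7 and 80.3 CPM in COP1 KO members, against 21.6 and 27.6 CPM in HET members (log2 1.65, adjusted p = 0.0293). Lhx2, a LIM-homeodomain factor of cortical progenitors, had 1144 and 1055 CPM in COP1 KO members, against 661 and 697 CPM in HET members (log2 0.74 ± 0.12 SE, adjusted p = 0.0244). The groups did not overlap in any of the 3, which was required of the called genes named and held in 39.4% of all 8709 genes tested. The gene named 2810417H13Rik, Pclaf in RefSeq, encodes a PCNA-binding factor of DNA replication and had 1017 and 1049 CPM in COP1 KO members, against 728 and 571 CPM in HET members (log2 0.71, adjusted p = 0.0398). This call was lost without HET 2 and when 3 or more cycle genes were required.

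Abundant genes changed by less. Ckb, a creatine kinase, had 1387 and 1504 CPM in COP1 KO members, against 981 and 955 CPM in HET members (log2 0.62, edgeR adjusted p = 0.0293). Tmsb4x, which sequesters actin monomers, had 5017 and 4978 CPM in COP1 KO members, against 3794 and 3987 CPM in HET members (log2 0.41, adjusted p = 0.0293). Dbi, an acyl-CoA-binding protein gene of radial glia, rose by 0.46 on the log2 scale (adjusted p = 0.0439), and was not called without HET 2 (adjusted p = 0.0571) or with scaling by library totals alone. With sex as a covariate Ckb, Dbi and Tmsb4x no longer passed. The other 2 that rose were Gm29521 (log2 2.28), which RefSeq did not match, and the pseudogene Gm12338 (log2 0.95), whose reads may belong to its parent.

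**Figure D3:**
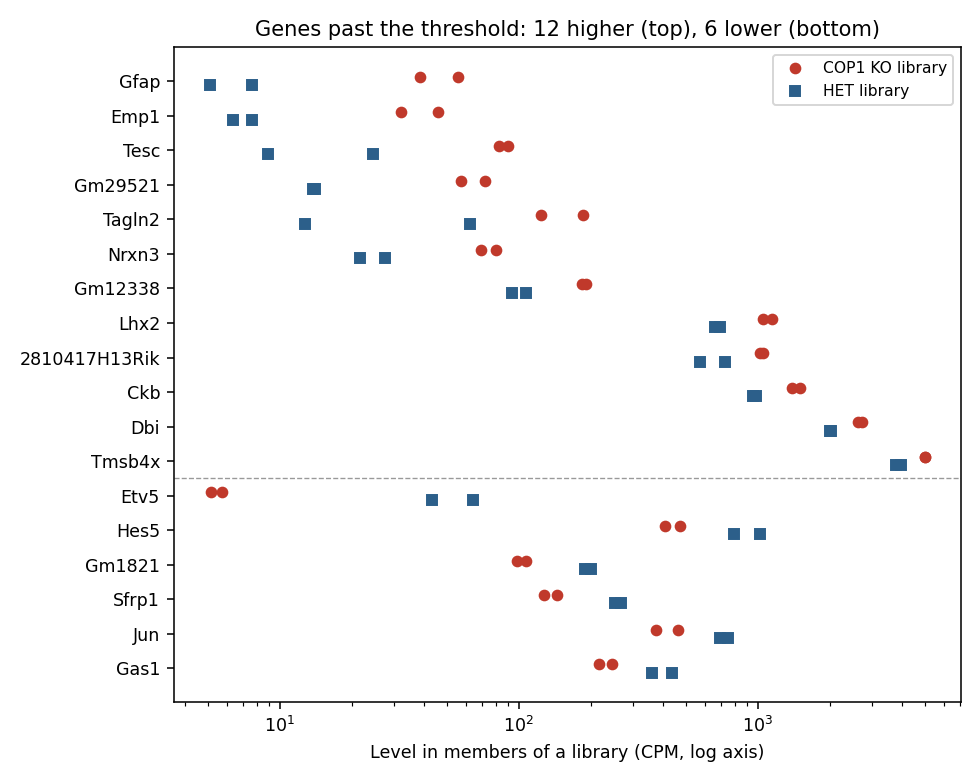
Level in members of each library (CPM, log axis) for the 12 genes that rose (above the dashed line) and the 6 that fell (below it); red circles are the 2 COP1 KO libraries and blue squares the 2 HET libraries. The genotypes do not overlap in any of the 18, as in 39.4% of all 8709 genes tested, and Etv5 and Gfap stand furthest apart.

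COP1 itself checks nothing here because the deleted part is not given. Its gene, Rfwd2 (chr1:159232156-159354872, GRCm38.p6), had 12.9 and 28.7 CPM in COP1 KO members, against 34.3 and 39.8 CPM in HET members (log2 -0.86 ± 0.38 SE, edgeR adjusted p = 0.526), which did not pass. Of 9 tested genes of the COP1 ligase and its partners (10 listed), none passed by edgeR or DESeq2 (3 by unadjusted p). Trib1, an adaptor that delivers substrates to COP1, had 54.2 and 49.7 CPM in COP1 KO members, against 25.4 and 27.6 CPM in HET members (log2 1.03, adjusted p = 0.218). Trib2 had a log2 change of 0.46 (adjusted p = 0.621). Of 8 tested COP1 substrates (12 listed), Jun and Etv5 fell and 6 did not pass. Etv1 had 19.4 and 11.5 CPM in COP1 KO members, against 17.8 and 19.9 CPM in HET members. Etv4 was too rare to test, with 1 and 1 UMI in COP1 KO members and 6 and 9 in HET members.

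No gene that marks the intermediate progenitor state passed the test in the main fit. Of 17 tested (19 listed), 0 passed by edgeR and 0 by DESeq2 (5 by unadjusted p under 0.05), with 6 higher, 11 lower and a median log2 change of -0.14, against -0.00 over all genes. Neurog2 had 844 and 858 CPM in COP1 KO members, against 1087 and 1193 CPM in HET members. The groups did not overlap, as in 39.4% of all genes tested, and the change did not pass (log2 -0.38 ± 0.11 SE, edgeR adjusted p = 0.2501). Neurog1, a rarer proneural relative, had a log2 change of -0.45 (adjusted p = 0.774). Btg2, a gene of neurogenic divisions, had 303 and 311 CPM in COP1 KO members, against 351 and 404 CPM in HET members (log2 -0.25, adjusted p = 0.604). Gadd45g had a log2 change of -0.29 (adjusted p = 0.625). Insm1, a zinc-finger factor that drives delamination of progenitors, was high in 1 library only, at 793 and 271 CPM in COP1 KO members, against 306 and 308 CPM in HET members. Its log2 change of 0.88 did not pass (adjusted p = 0.387) and was -0.16 without COP1 KO 1. Insm1 passed in 4 of 15 other settings, which include fits with 1 library left out.

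No gene of the neuronal and cell-cycle lists passed by edgeR or DESeq2. Of 18 newborn-neuron genes tested, none passed (2 by unadjusted p), with 9 higher, 9 lower and a median of 0.02. Neurod1 had 191 and 231 CPM in COP1 KO members, against 206 and 208 CPM in HET members (log2 0.06, edgeR adjusted p = 0.940). Over all 8709 genes tested, 4397 were lower and 8.98% passed by unadjusted p. Of 40 S-phase genes, none passed (2 by unadjusted p), 27 were lower and the median was -0.10. Of 53 genes of G2 and mitosis outside the rule, none passed (9 by unadjusted p), 39 were lower and the median was -0.11. Among these Hmgb2, a chromatin protein gene, had 551 and 545 CPM in COP1 KO members, against 793 and 801 CPM in HET members (log2 -0.50, adjusted p = 0.113). Of 15 cyclin and CDK inhibitor genes tested, none passed (4 by unadjusted p), and the median was -0.19. Ccnd2, the main D cyclin of these cells, had 1597 and 1636 CPM in COP1 KO members, against 1630.3 and 1693 CPM in HET members (log2 0.00). Ccnd1 had a log2 change of -0.18 (adjusted p = 0.850). In simulated data that gave every gene the same variability between libraries, a log2 change of 1 was recovered in 41.4% of 99 genes. A change of 2 was recovered in 94.8% of 96, so changes of the smaller size can be missed at this depth. Genes that vary more between libraries, such as Insm1 (793 and 271 CPM in COP1 KO members), are not covered by these shares.

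Of 20 tested radial glial genes (21 listed), Dbi rose, Hes5 and Gas1 fell, 11 passed by unadjusted p, against 8.98% of all genes, and the median was 0.22. Sox2, a progenitor factor, had 602 and 342 CPM in COP1 KO members, against 342 and 395 CPM in HET members (log2 0.43, edgeR adjusted p = 0.563), high only in COP1 KO 1. Pax6 had a log2 change of -0.25 (adjusted p = 0.576). Of 13 tested Notch pathway genes (19 listed), 1 passed, Hes5 (4 by unadjusted p). Hes1, the second Notch effector, had 224 and 218 CPM in COP1 KO members, against 296 and 432 CPM in HET members (log2 -0.66, adjusted p = 0.130). Over 14 other settings the Hes1 change stayed below 0, from -1.53 to -0.37. It passed the threshold in 5 of the 14, which include fits with 1 library left out. Notch2, a receptor, had a log2 change of -1.15 (adjusted p = 0.187), and Dll3, a divergent ligand, one of 1.09 (adjusted p = 0.191).

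AP-1 targets and injury-type genes had the highest median among the lists with 8 or more tested members, 1.08 over 11 tested of 19 listed. The list was chosen with earlier results of these data known, so its rank and counts are a description only. Gfap, Emp1 and Tagln2 rose, and 7 passed by unadjusted p. Of the 11, 10 were higher in COP1 KO members, against 4312 of all 8709 genes tested. Lgals1, a galectin, had 236 and 185 CPM in COP1 KO members, against 45.7 and 170 CPM in HET members (log2 1.08, edgeR adjusted p = 0.306), with HET 2 close to the COP1 KO level. It passed in 6 of 15 other settings, which include fits with 1 library left out. Ndrg1, a stress-induced gene, had a log2 change of 1.73 (adjusted p = 0.136). Of 10 tested ERK feedback and ETS target genes (18 listed), none passed by edgeR or DESeq2 (1 by unadjusted p), and the median was -0.11. Dusp6, an ERK phosphatase, had 36.1 and 40.1 CPM in COP1 KO members, against 10.2 and 13.8 CPM in HET members (log2 1.71, adjusted p = 0.0942). Of 15 gliogenic factors tested, none passed by either tool (5 by unadjusted p), and the median was 0.25. Among them Olig2 had 58.1 and 17.2 CPM in COP1 KO members, against 8.90 and 4.59 CPM in HET members (log2 2.56, adjusted p = 0.105). It passed in 4 of 11 other settings, which include fits with 1 library left out. Olig1 was not tested, with 51 and 4 UMIs in COP1 KO members and none in HET members, where a count of 0 allows up to 3.81 and 4.59 CPM. None of the 19 cholesterol synthesis, 16 glycolysis and hypoxia and 10 histone genes tested passed by either tool (0, 2 and 3 by unadjusted p), nor did any of the 7 mitochondrially encoded genes tested (5 by unadjusted p, median 0.30). Of 16 immediate early and stress genes tested, 1 passed, Jun (3 by unadjusted p).

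**Figure D4:**
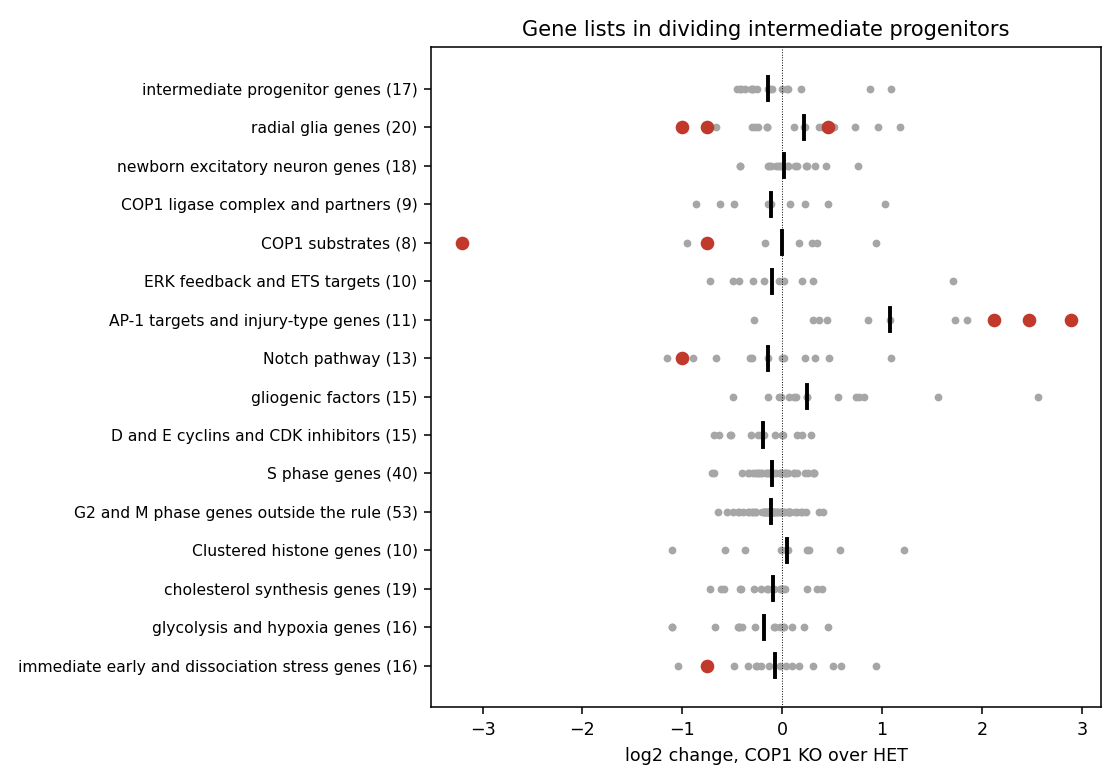
Change between COP1 KO and HET members (log2) of every tested gene of 16 lists, with the number tested in parentheses; grey dots did not pass, red dots passed and black bars are list medians. The AP-1 and injury-type list has the highest median, 1.08, while the S-phase and G2 lists have medians of -0.10 and -0.11. Lists were chosen with earlier results of these data known.

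RNA of other cell types was present in single members and moved with library. Summed blood markers stood at 6601 and 191 CPM in COP1 KO members, against 161 and 124 CPM in HET members. Microglia markers were at 6.45 and 3.82 CPM in COP1 KO members, against 1.27 and 320.0 CPM in HET members. Markers of vessels and meninges were at 68.4 and 40.1 CPM in COP1 KO members, against 2.54 and 256 CPM in HET members. Oligodendrocyte precursor markers were at 135 and 26.8 CPM in COP1 KO members, against 8.90 and 7.65 CPM in HET members. Of these, Olig2 was seen in 19 and 8 COP1 KO members and in 5 and 3 HET members. No gene of these 4 lists was at 0 in all members. Genes of the ganglionic eminence and interneurons other than Dlx1 and Dlx2 summed to 252 and 254 CPM in COP1 KO members, against 160.1 and 209.7 CPM in HET members. Of the 12 listed, 3 were tested, all higher in COP1 KO members, and none passed by edgeR or DESeq2 (2 by unadjusted p). The homeobox gene Dlx5 had 25 and 12 UMIs in COP1 KO members, against 4 and 0 UMIs in HET members (log2 3.32 ± 0.68 SE, adjusted p = 0.0678). The choroid plexus gene Ttr had 6707 and 17 UMIs in COP1 KO members, against 26 and 3 UMIs in HET members, and 1 barcode of COP1 KO 1 held 99.1% of all of it. Leaving out 7 members of COP1 KO 1 and 2 of HET 2 with 10 or more UMIs of Ttr, of blood markers, of Vtn or of Olig1, a choice made after seeing the data, gave 27 calls, and all 18 genes above stayed among them. Lgals1 then passed (log2 1.93, edgeR adjusted p = 0.00261). Leaving out every member with any marker of blood, microglia, oligodendrocyte precursors or vessels kept 20 and 16 members in COP1 KO libraries and 25 and 25 in HET libraries. Of the 18 genes 13 were then tested and 5 called: Hes5, Gas1, Lhx2, 2810417H13Rik and Tmsb4x. Tesc (log2 2.07, adjusted p = 0.181) and Tagln2 (0.71, adjusted p = 0.926) were not, and Gas1 was at -2.14. The part of other cell types' RNA in the remaining members was not tested.

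The third question was whether the genotype effect in members differed from that in dividing radial glia and in non-dividing Eomes barcodes. It was tested as a population-by-genotype term over 2 sums per library. Dividing radial glia had 256 of 11267 genes past the test on their own (2.27%; 148 higher, 1.31%, and 108 lower, 0.959%), and non-dividing Eomes barcodes 4 of 10283 (0.0389%), all higher (Dbi, H19, Lgals1 and Sparc). Numbers of calls are not comparable across populations of different size, and the populations share the same 4 libraries. The sums of dividing radial glia also held Olig1 and blood RNA. Olig1 was at 335 and 391 CPM in their COP1 KO sums, against 81.6 and 105 CPM in HET sums. Hbb-bs was at 7237 and 6383 CPM in their COP1 KO sums, against 1395 and 1366 CPM in HET sums. The part of such RNA in the changes within dividing radial glia was not tested. In dividing radial glia, Gfap rose by 2.96, Tagln2 by 1.49 and Emp1 by 1.67, and Etv5 fell by 1.99, Jun by 1.11 and Gas1 by 0.80 on the log2 scale. None of these 6 effects was shown to differ between members and dividing radial glia: the adjusted p of the term was lowest for Jun, at 0.654, and was 0.781 for Etv5. Lhx2 had a log2 change of 0.15 in dividing radial glia that did not pass, and its difference from members, 0.62, did not pass either (adjusted p = 0.227).

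Between members and dividing radial glia, 18 of 10873 genes differed in their genotype effect (0.166%), 15 towards higher (0.138%) and 3 towards lower (0.0276%) in members; 701 (6.45%) passed by unadjusted p. In 12 of the 18, 1 barcode held over 50% of the members' counts, Ttr and other choroid plexus genes among them. Hes5 was one of the remaining 6. Dividing radial glia held 685 and 610 CPM of Hes5 in COP1 KO libraries, against 642 and 828 CPM in HET libraries, with overlap between the groups (log2 -0.13, edgeR adjusted p = 0.717). The difference from members was -0.87 ± 0.12 SE (adjusted p = 0.00448). Hes5 is one of the 5 genes that choose the radial glia, and with these chosen without it the difference was -0.86 (adjusted p = 0.0164). It did not pass by DESeq2 (-0.87, adjusted p = 0.986), which called 0 differences between members and either other population (37 and 43 by unadjusted p). Nor did it pass by edgeR when members and radial glia needed 3 or more cycle genes (-0.56, adjusted p = 0.138) or were thinned to 2000 UMIs (-0.05, adjusted p = 1).

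Ccnd1, a D cyclin, rose in dividing radial glia, with 262 and 265 CPM in COP1 KO libraries, against 104 and 130 CPM in HET libraries (log2 1.22, edgeR adjusted p = 0.00048). In members it had 91.6 and 66.9 CPM in COP1 KO libraries, against 96.6 and 93.4 CPM in HET libraries, and the difference between the populations was -1.42 ± 0.23 SE (adjusted p = 0.021). The same cyclin family member Ccnd2 rose by 0.61 in dividing radial glia, with a difference of -0.60 that did not pass (adjusted p = 0.0502). Dmrta2, a cortical patterning factor, and Emid1 fell in dividing radial glia (log2 -0.73 and -0.69), and their effects in members were higher by 0.94 and 1.87 (adjusted p = 0.021 for both). The differences of Ccnd1, Dmrta2 and Emid1 were not called without HET 1, with adjusted p of 0.105, 0.0856 and 0.104.

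Between members and non-dividing Eomes barcodes, 19 of 10301 genes differed (0.184%), 12 towards higher (0.116%) and 7 towards lower (0.068%) in members, and 557 (5.41%) passed by unadjusted p. In 4 of the 19, 1 barcode held over 50% of the members' counts. Non-dividing Eomes barcodes held 425 and 423 CPM of Hes5 in COP1 KO libraries, against 377 and 483 CPM in HET libraries (log2 0.01, edgeR adjusted p = 0.994). The difference from members was -1.01 ± 0.13 SE (adjusted p = 8.75e-06) and passed with 3 or more cycle genes (-0.81, adjusted p = 0.000138), but not after thinning (-0.24, adjusted p = 0.999) or by DESeq2 (-1.01, adjusted p = 0.112). Sox2 had 396 and 267 CPM in non-dividing COP1 KO barcodes, against 116 and 159 CPM in HET ones (log2 1.31, adjusted p = 0.0561). Its effect in members was lower (difference -0.91, adjusted p = 0.00083). Lgals1 rose in non-dividing Eomes barcodes, with 172 and 188 CPM in COP1 KO libraries, against 18.4 and 21.6 CPM in HET libraries (log2 3.19, adjusted p = 2.4e-05). Its effect in members was lower (-2.11, adjusted p = 2.33e-05), but not past the threshold without HET 2 (-1.05, adjusted p = 0.533) or without the barcodes rich in RNA of other cell types (-1.25, adjusted p = 0.0757). Non-dividing barcodes were shallower than members, with medians of 3735 to 4503 UMIs per library.

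**Figure D5:**
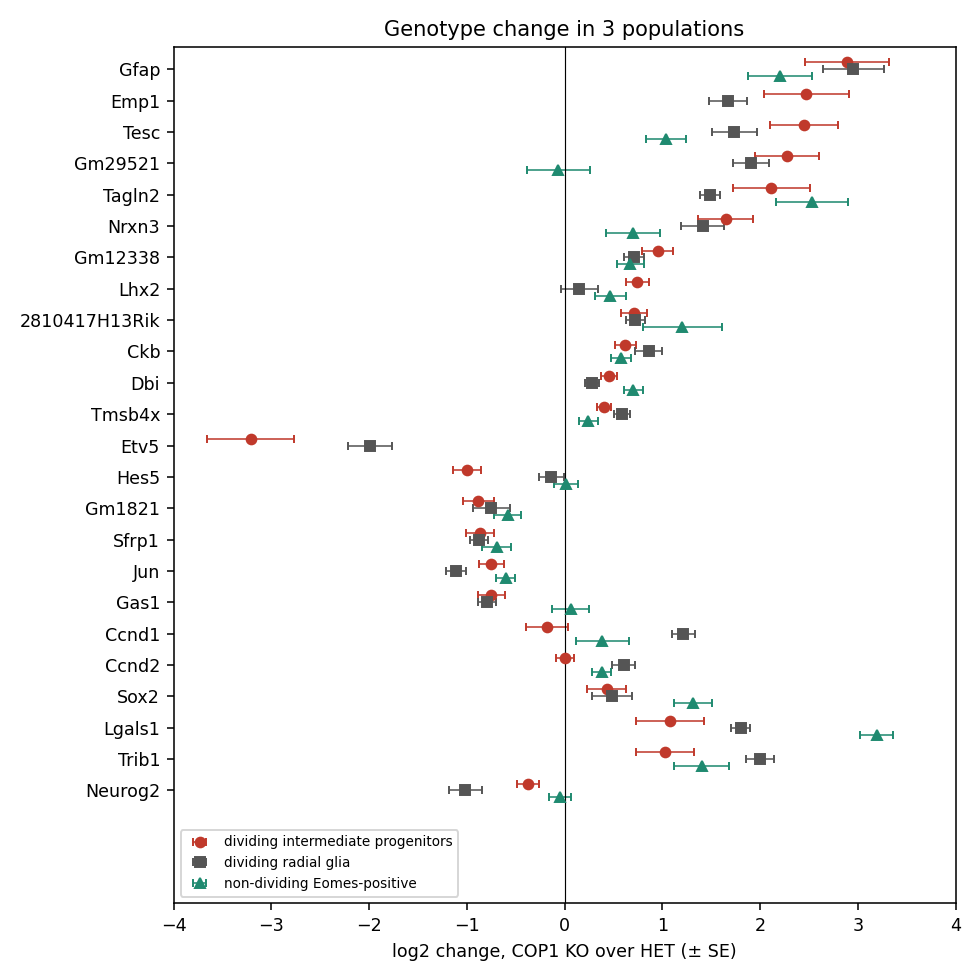
Change between COP1 KO and HET (log2 ± SE) of 24 genes in dividing intermediate progenitors (red circles), dividing radial glia (grey squares) and non-dividing Eomes barcodes (green triangles). Hes5 is at -0.999 in members, -0.13 in dividing radial glia and 0.01 in non-dividing Eomes barcodes, and Ccnd1 is at 1.22 in dividing radial glia and -0.18 in members.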

How the data were processed

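Single-cell RNA of 2 COP1 KO and 2 HET cortical samples, dissociated with papain, was measured with the 10x Chromium 3′ kit v2 and 1 HiSeq4000 lane per library, per the labels' protocols. The authors deposited whole-number counts per gene and barcode, not normalized. Per the submitters' processing notes, the aligner was GSNAP and the build GRCm38 (mm10). The steps of counting, UMI collapsing and cell calling, and the annotation, were not given in the sources used here. Of 36528 gene rows, 3065 carried only a number (1.69% of counts): they stayed in the fits and are not named. Removed were 40 rows that held the same counts as another row in every barcode and at least 10 counts (1.33% of counts). Coordinates and promoters are RefSeq's (GRCm38.p6), promoters of chromosome 18 left out.

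Raw counts were summed per library over members, over dividing radial glia and over non-dividing Eomes barcodes. The sums were tested with edgeR 4.0.16 (R 4.3.3; TMM, filterByExpr, glmQLFit, glmQLFTest, Benjamini-Hochberg over all genes tested, threshold 0.05), COP1 KO over HET. Differences between populations were population-by-genotype terms with library as a block. Shares had exact permutation tests and 95% Clopper-Pearson intervals. Scripts were tested on simulated data. DESeq2 1.42.0, library totals, no filter, sex, thinning to 2000 UMIs, other member rules and leaving out each library were alternatives. Depth and precision per library are given with the results; a count of 0 was read against 3 counts.

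Members, gene lists and comparisons were chosen with earlier results of these data known. Genes named are the called genes with a mean of at least 20 CPM and no overlap between genotypes, listed genes that passed, a list of progenitor, Notch, COP1 and cyclin genes, and for each difference between populations the 6 passing genes of smallest p; Notch2, Dll3, Hmgb2, Ndrg1, Dusp6, Dlx5, H19 and Sparc were named after their values were seen.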

Additional observations from a re-analysis of the deposited data

Results flagged for a closer look

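The genotype effects of 12 gene and population pairs differed by a direct test of the difference (edgeR population-by-genotype term, COP1 KO over HET, members minus the other population, log2). Against dividing radial glia these were Ttr (10.07), Hes5 (-0.87), Dmrta2 (0.94), Ccnd1 (-1.42), Emid1 (1.87) and 1500015O10Rik (2.04). Against non-dividing Eomes barcodes they were Hes5 (-1.01), Lgals1 (-2.11), Ttr (7.60), Hbb-bs (3.49), Sox2 (-0.915) and Hbb-bt (4.35). For Ttr, 1 member of COP1 KO 1 held 99.1% of the members' counts, and for Hbb-bs and Hbb-bt 1 member held 48.8% and 65.5%. Dividing radial glia held Ttr too, at 1761 and 35.2 CPM in COP1 KO libraries, against 10980 and 18.3 CPM in HET libraries. The difference of 10.07 thus also rests on the high level in HET 1. Without the barcodes rich in RNA of other cell types the Ttr differences were 0.50 and 0.45, and that of 1500015O10Rik was 0.97 (adjusted p = 0.172). The last and Ttr against dividing radial glia were also not called without HET 1 (1.63 and 3.77). The part of other cell types' RNA and of single libraries in the remaining differences was not tested.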

How the results depend on the processing

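No paired analysis was possible because the labels carry no replicate numbers; a fit with the sex of the library as a covariate, which sets 1 COP1 KO and 1 HET library of each sex side by side, gave 27 calls (20 higher, 7 lower), with 15 of the 18 among them. Counts of genes called in members (18) were 29 with 3 or more cycle genes, 0 after thinning, 0 with 2 or more UMIs of Eomes, 219 with no filter on low counts, 7 with DESeq2 and 71 to 332 with 1 library left out (106 without COP1 KO 1, 332 without COP1 KO 2, 115 without HET 1, 71 without HET 2; the lone sample is assumed to vary like the other group). Of the 18, 17 were called without HET 1, 16 without HET 2 and all 18 without either COP1 KO library. Differences from dividing radial glia (18) numbered 5 without Scrublet scores over 0.25, 0 after thinning (268 by unadjusted p), 11 with radial glia chosen without Hes5, 101 with no filter, 0 with DESeq2 (37 by unadjusted p) and 27 to 104 with 1 library left out. Differences from non-dividing Eomes barcodes (19) numbered 1 after thinning, 11 without the barcodes rich in RNA of other cell types, 46 with no filter, 0 with DESeq2 (43 by unadjusted p) and 17 to 47 with 1 library left out. The choice of radial glia without Hes5 and the removal of those barcodes were set after seeing the data. With 1 library left out, the share of members differed by -0.564 to 0.0896 points and the dividing share by -2.39 to 2.32 points; the dividing share also turned round with 3 or more cycle genes (1.80 points) and after thinning (0.780 points). Changes of sign in members were, on the log2 scale, Gas1 after thinning (0.68), Etv1 (0.0058) and Neurog1 (0.22) with 3 or more cycle genes, and Btg2 without members holding any marker of blood, microglia, oligodendrocyte precursors or vessels (0.056), a choice that left 13 of the 18 genes tested and 5 called. Ccnd2, near 0, was -0.049 with 2 or more UMIs of Eomes, -0.53 without members holding any such marker, -0.040 by library totals and -0.0030 with no filter. With 1 library left out, the changes of these genes ranged across 0: Etv1 from -0.69 to 0.12, Neurod1 from -0.037 to 0.17, Insm1 from -0.16 to 1.45, Gadd45g from -0.54 to 0.013, Sox2 from -0.091 to 0.79, Ccnd1 from -0.49 to 0.025 and Ccnd2 from -0.021 to 0.029. The Ttr difference from dividing radial glia was -5.09 after thinning, and the Hbb-bt difference from non-dividing Eomes barcodes was -1.16 without those rich barcodes and -1.01 to 5.40 with 1 library left out (-1.01 without COP1 KO 1). The causes were not tested. Members hold few UMIs per library, and 2 libraries a group limit every estimate.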
